A study of Homo sapiens with 4 samples.

Results

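The genes described here encode the proteins of the cytosolic ribosome. They were chosen by symbol alone: RPL or RPS followed by digits with an optional A, L, X or Y, plus RPLP0, RPLP1, RPLP2 and RPSA, with pseudogenes, the RPS6K kinases and antisense genes left out. The rule found 78 members among the 13165 genes of the table, 46 of the large subunit and 32 of the small subunit. A gene was kept when its mean over both groups was at least 0.5 FPKM, fragments counted per kilobase of transcript and scaled to the sequenced total. All 78 members were kept, beside 12305 genes kept in all.

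The study compared TPC1 cells, an established human papillary thyroid cancer line, carrying an empty vector (TPC1-Vector) with TPC1 cells overexpressing C1orf106 (TPC1-C1orf106), a gene now named INAVA. Both groups were puromycin-selected stable lines made with a retroviral vector and grown in the same serum-supplemented medium, so the controls shared the selection and the backbone. Whether these lines were pools or clones is not stated by the study. mRNA was sequenced from 2 libraries a group, and the deposited table held 1 combined FPKM value per gene and group. With group values alone no spread between libraries could be had, so differences below carry no error and no test was run, and the depth behind each value is unknown.

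C1orf106 itself had 7.96 FPKM in the TPC1-Vector column and 123 FPKM in the TPC1-C1orf106 column, a 15.4-fold difference in the direction of the labels. Of the thyroid lineage markers, PAX8 (60.1 and 55.7 FPKM) and FOXE1 (5.26 and 5.89 FPKM) were detected, and NKX2-1, TG, TSHR and SLC5A5 had no entry. Of the simple epithelial markers, KRT8 (23.4 and 10.5 FPKM) and KRT18 (140 and 212 FPKM) were present, and KRT19, EPCAM and CDH1 had no entry. The fibroblast markers summed to 3.56 and 2.19 FPKM and the haematopoietic markers to 0.295 and 0.236 FPKM. The entry of the small nucleolar RNA SNORA57 held 77.4% of the summed FPKM of the TPC1-Vector column and was listed at 0 in the other, so entries for small RNAs were left out of all column sums.

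Each cytosolic ribosome has a small subunit, which reads the mRNA and holds the decoding site, and a large subunit, which joins amino acids and threads the growing chain through an exit tunnel. Most of their proteins are present in 1 copy per ribosome, and dividing cells spend much of their mRNA pool on them. Their mRNAs typically begin with a cytosine followed by an unbroken tract of pyrimidines, the 5' terminal oligopyrimidine or TOP motif, through which mTORC1 and LARP1 control their translation. FPKM reports mRNA abundance relative to other mRNAs, so neither translation nor the amount of ribosomal mRNA per cell was measured here. A difference in all cells of a group and one in only part of them cannot be told apart.

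RefSeq promoter windows were matched for 63 of the 78 members by symbol. The other 15 had no entry. The windows printed here are those of RPS21, RPS19 and RPS28, which stood highest in TPC1-C1orf106 relative to TPC1-Vector together with RPS27L, of RPS24, which stood lowest, of RPL35, the most abundant large-subunit member, and of the near-copies RPS27 and RPS27L. Each runs from 70 bases before the annotated start through 30 bases from the start on, 5' to 3' on the strand of the gene, in build GRCh38.p14. Capitals mark the longest run of C and T that touches the interval from 10 bases before to 20 bases after the start, where that run has at least 7 bases. Runs farther upstream are unmarked, and RPS27L has no such run at its start.
RPS21, chr20:62387033-62387132, plus strand: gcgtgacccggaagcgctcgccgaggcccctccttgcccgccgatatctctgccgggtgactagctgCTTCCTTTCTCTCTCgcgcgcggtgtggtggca
RPS19, chr19:41860185-41860284, plus strand: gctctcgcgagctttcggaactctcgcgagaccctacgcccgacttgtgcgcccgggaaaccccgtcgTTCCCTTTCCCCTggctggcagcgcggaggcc
RPS28, chr19:8321426-8321525, plus strand: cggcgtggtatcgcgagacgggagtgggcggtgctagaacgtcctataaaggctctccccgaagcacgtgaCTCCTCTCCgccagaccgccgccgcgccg
RPS24, chr10:78033793-78033892, plus strand: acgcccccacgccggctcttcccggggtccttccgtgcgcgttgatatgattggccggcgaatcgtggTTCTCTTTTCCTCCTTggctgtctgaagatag
RPL35, chr9:124861928-124862027, minus strand: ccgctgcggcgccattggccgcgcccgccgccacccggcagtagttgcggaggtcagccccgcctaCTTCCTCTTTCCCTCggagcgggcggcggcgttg
RPS27, chr1:153990692-153990791, plus strand: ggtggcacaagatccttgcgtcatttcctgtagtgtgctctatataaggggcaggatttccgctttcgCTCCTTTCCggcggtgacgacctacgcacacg
RPS27L, chr15:63157448-63157547, minus strand: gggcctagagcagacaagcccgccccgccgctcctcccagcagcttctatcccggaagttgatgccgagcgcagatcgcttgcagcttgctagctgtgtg

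A run of at least 7 pyrimidines at the start, as marked above, was found in 57 of the 63 members, 90.5%. The same was true of 30.9% of the 9238 kept genes with a window and of 30.5% of all 27305 promoters, with the start of the longest run taken wherever a gene had several, as 10 members had. The annotated first base was C in 74.6% of members, against 13.7% of kept genes and 15.9% of all promoters. The run of RPS21 had 15 bases, that of RPS24 16, that of RPS19 13, and those of RPS28 and RPS27 9 each. The longest run at the start of RPS27L had 3 bases, the shortest among the members, and RPL3, RPL6, RPS29 and RPS4X with 5 and RPL12 with 6 made up the rest of the shorter runs. The median log2 difference between the groups was 0.046 over the 57 members with a run and -0.043 over the 6 without. These matches are letters in a window and not mapped starts of these cells.

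Other short motifs were searched on both strands of the whole 300-base window, each on its own, so 1 stretch could be counted for more than 1 motif. CCGGAA, the core of sites bound by ETS factors, was present in 52.4% of the members, 30.2% of kept genes and 17.4% of all promoters. AAGATGG, a core read by YY1, was present in 12.7%, 7.77% and 6.02%. TATAAA was present in 7.94%, 5.36% and 12.2%, and CACGTG, the canonical E-box bound by MYC and MAX, in 3.17%, 10.1% and 7.22%. The members thus carried the pyrimidine run and CCGGAA in larger shares than kept genes and CACGTG in a smaller one.

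Ribosomal protein mRNAs were among the most abundant of the table in both groups. The median member stood at 909 FPKM in TPC1-Vector against 907 FPKM in TPC1-C1orf106, while the median of all kept genes was 11.3 FPKM in each group. Small-RNA entries aside, 33 of the 56 genes at 1000 FPKM or more in TPC1-Vector were members, and 35 of the 61 in TPC1-C1orf106. Together the members held 16.7% of the summed FPKM in TPC1-Vector against 16.8% in TPC1-C1orf106. The large subunit held 9.23% and 9.44%, and the small subunit 7.45% and 7.37%. The ratio of the large-subunit sum to the small-subunit sum was 1.24 in TPC1-Vector and 1.28 in TPC1-C1orf106.

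**Figure D1:**
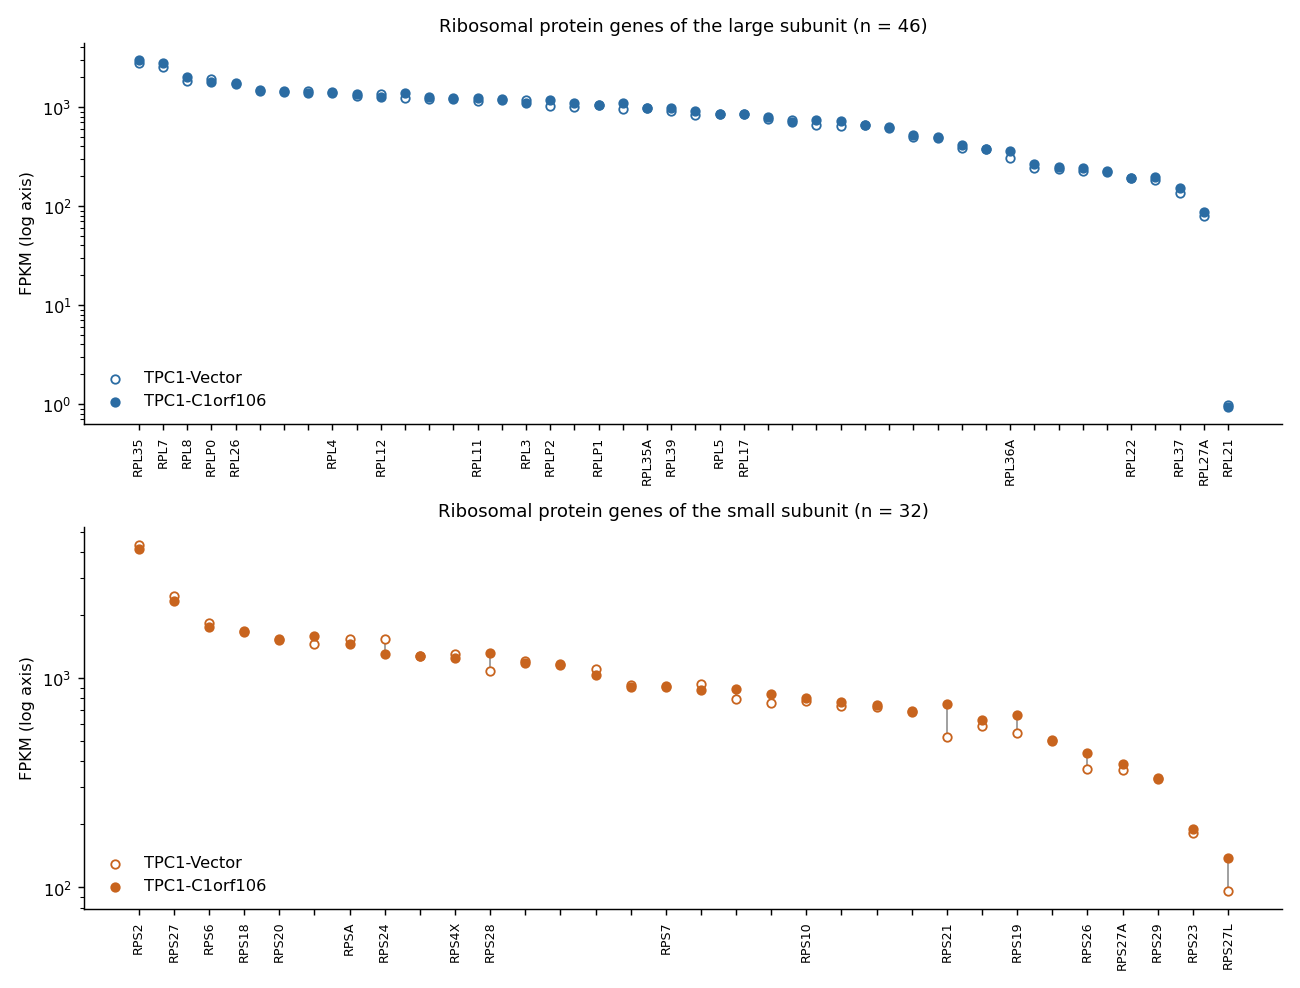
FPKM of each member on a log axis, ordered by mean within the large subunit (upper panel) and the small subunit (lower panel), with open points for TPC1-Vector and filled points for TPC1-C1orf106, 1 combined value each, and with names under part of the members. Nearly all pairs of points lie close together, RPS21 and RPS27L are the widest pairs, and RPL21 lies far under the rest at 0.970 and 0.943 FPKM.

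Within the ribosome the levels were far from equal. In the small subunit, RPS2, which lies near the mRNA entry channel, was the most abundant member of all at 4323 FPKM in TPC1-Vector against 4135 FPKM in TPC1-C1orf106. It was followed by the zinc-finger protein RPS27 at 2460 and 2318 FPKM, RPS6 at 1838 and 1757 FPKM, RPS18 at 1659 and 1673 FPKM, and RPS20 at 1540 and 1516 FPKM. In the large subunit the order was led by RPL35, a protein at the exit of the tunnel, at 2806 and 2982 FPKM. RPL7 had 2547 and 2766 FPKM, RPL8 had 1846 and 2004 FPKM, RPLP0 had 1901 and 1768 FPKM, and RPL26 had 1702 and 1757 FPKM. These 10 genes kept nearly the same places in both groups, and over all 78 members the rank order of FPKM was almost the same, with a Spearman rho of 0.99 between columns that share gene models and lengths.

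At the other end, RPL21 stood at 0.970 FPKM in TPC1-Vector against 0.943 FPKM in TPC1-C1orf106, far from the next lowest value of 79.1 FPKM in TPC1-Vector. RPL21 is a core protein of the ribosome, and it has 66 named pseudogenes in GENCODE release 29, to which reads of its mRNA can also align. Whether reads were lost in this way was not tested. RPSA had 74 named pseudogenes and stood at 1527 and 1453 FPKM, and RPL23A had 91 and stood at 241 and 268 FPKM. Over the members the number of pseudogenes and the mean FPKM had a Spearman rho of 0.012 (n = 78 genes). That figure does not show how reads of any 1 gene were assigned. RPL27A stood at 79.1 and 87.2 FPKM and RPL37 at 135 and 151 FPKM. The lowest of the small subunit were RPS27L at 95.9 and 138 FPKM, RPS23, a decoding-site protein, at 183 and 191 FPKM, and RPS29 at 332 and 329 FPKM.

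Differences between the groups were computed on log2(FPKM + 0.5), TPC1-C1orf106 minus TPC1-Vector, and a gene was called when it differed by at least 1.2-fold on that scale. Of the 78 members, 4 were called higher in TPC1-C1orf106, 5.13%, and 0 were called lower. Over all 12305 kept genes, 10.6% were called higher and 9.63% lower. Called shares of the members were thus under those of all genes in both directions, and their differences were narrow: the interquartile range was 0.13 wide on the log2 scale for the members and 0.24 for all kept genes. The lowest member difference was -0.23 and the highest 0.52.

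The median member difference was 0.045 on the log2 scale, with 52 members above 0 and 26 below, beside 0.0033 for all kept genes. Median-of-ratios scaling left the median at 0.041 with 51 members above 0. Quantile normalization moved it more: after quantile normalization the median was 0.017 with 41 members above 0, and after the same step without SNORA57 it was 0 with 38 above 0. Mean abundance differs between members and most genes, so 706 other genes at 100 FPKM or more were set beside them. Their median was 0.037, their interquartile range 0.19, and 10.3% were called higher and 5.52% lower. The 77 mitochondrial ribosomal protein genes, whose products form the separate ribosome inside mitochondria, had a median of 0.047 and an interquartile range of 0.13, with 1 called higher and 3 lower.

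**Figure D2:**
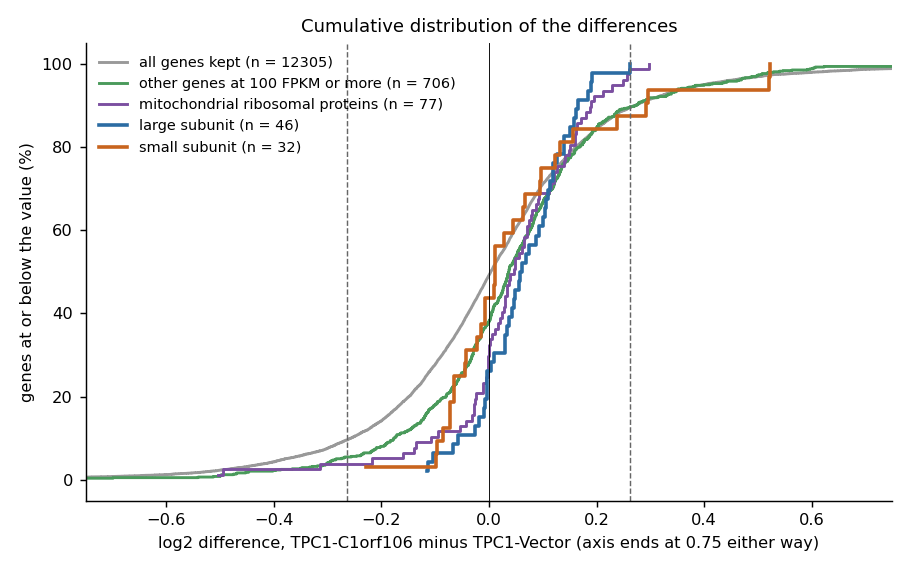
Cumulative share of genes (%) at or below each log2 difference, TPC1-C1orf106 minus TPC1-Vector, for both subunits, mitochondrial ribosomal proteins, other genes at 100 FPKM or more and all kept genes, with dashed lines at 1.2-fold either way. Both subunits form steeper curves than all kept genes, and the curve of the large subunit ends before the 1.2-fold line at 0.26.

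All 4 calls fell in the small subunit, 12.5% of its members, beside 10.6% of all kept genes. RPL36A of the large subunit lay just under the threshold, at 0.262 against 0.263. Large-subunit members had a median difference of 0.060, with 34 of 46 above 0, and 0 were called in either direction, from RPL3 at -0.12 to RPL36A at 0.26. Small-subunit members had a median of 0.012, with 18 of 32 above 0 and 4 called higher, from RPS24 at -0.23 to RPS21 at 0.52. The interquartile ranges were 0.12 and 0.15. With quantile normalization the medians were 0.021 and -0.0040, so that of the small subunit changed sign, and RPL35, RPL7 and RPL8 of the large subunit were then called higher. Without RPS27L, a near-copy of RPS27, 3 of 31 small-subunit genes were called higher, 9.68%, and the median was 0.011.

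**Figure D3:**
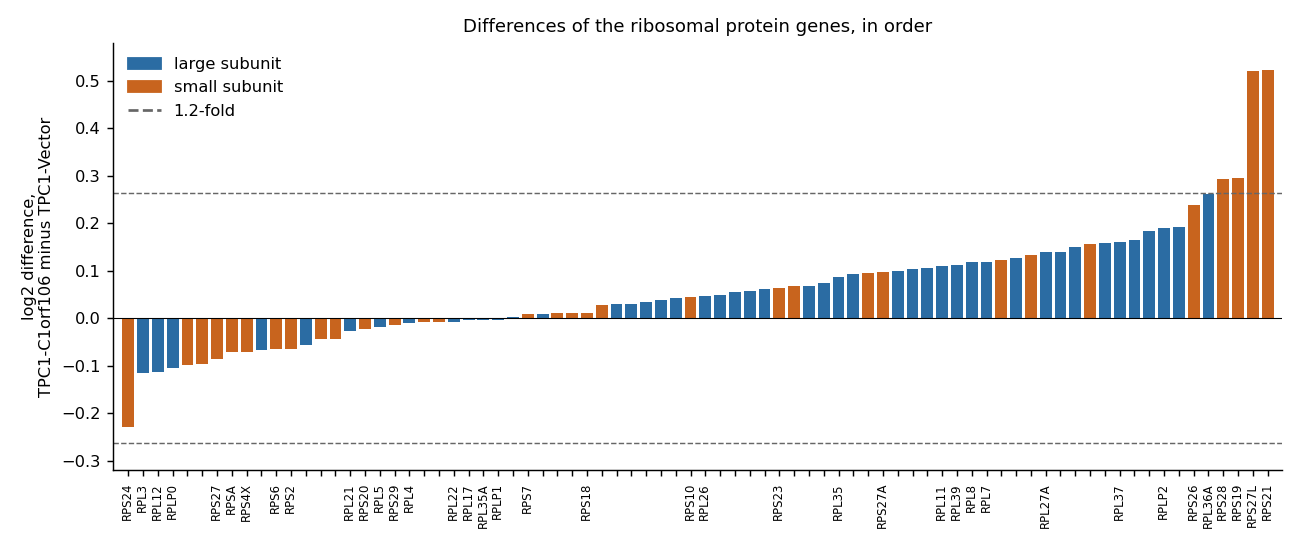
Log2 difference of each of the 78 members, TPC1-C1orf106 minus TPC1-Vector, in rising order, coloured by subunit and named for part of the members, with dashed lines at 1.2-fold either way. The bars of RPS28, RPS19, RPS27L and RPS21 pass the upper line and no bar passes the lower one.

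RPS21, a small protein of the small subunit listed at chr20:62387065-62388520 (hg38), stood at 525 FPKM in TPC1-Vector against 754 FPKM in TPC1-C1orf106. That is a 1.44-fold difference, or 0.52 on the log2 scale, the highest of the members together with RPS27L. Other genes of the same chromosomal segment were also higher in TPC1-C1orf106: the median difference of the 55 genes at 1 FPKM or more within 5 Mb of RPS21 was 0.37. RPS21 lay 0.15 above that median.

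RPS27L, listed at chr15:63153340-63157542, stood at 95.9 FPKM in TPC1-Vector against 138 FPKM in TPC1-C1orf106, also 1.44-fold and 0.52 on the log2 scale. Its gene is known as a target of p53. The 57 genes within 5 Mb had a median of -0.056, so RPS27L lay 0.58 above its neighbours, and in its window printed above no run of at least 7 pyrimidines touches the start, as one does in the other called members. RPS27 stood at 2460 and 2318 FPKM, a difference of -0.085. Of the summed FPKM of the pair, RPS27L made up 3.75% in TPC1-Vector and 5.61% in TPC1-C1orf106. How the counting split reads between these similar genes is not given in the sources used here, so the shares are uncertain.

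RPS19, the protein most often affected in Diamond-Blackfan anaemia, stood at 545 FPKM in TPC1-Vector against 669 FPKM in TPC1-C1orf106, a 1.23-fold difference. RPS28, a small protein near the mRNA exit channel, stood at 1076 and 1318 FPKM, a 1.22-fold difference. Their neighbours on chromosome 19 had medians of 0.065 and 0.053, against 0.30 and 0.29 for the genes themselves. Neither call held under quantile normalization, where RPS19 had 0.20 and RPS28 0.25, or under the same step without SNORA57, where they had 0.20 and 0.21. Just inside and just outside the threshold, RPS28 had a log2 difference of 0.29 and RPL36A, at 302 and 362 FPKM, one of 0.26. RPS26, at 370 and 436 FPKM, followed at 0.24.

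No member was called lower. RPS24, a small-subunit protein needed for processing of the ribosomal RNA precursor, stood lowest at 1531 FPKM in TPC1-Vector against 1306 FPKM in TPC1-C1orf106, 0.853-fold or -0.23 on the log2 scale. The 44 genes within 5 Mb of it on chromosome 10 had a median of -0.30, so RPS24 lay 0.076 above its neighbours. The members next above it were RPL3, a protein near the peptidyl transferase centre, at -0.12, RPL12 at -0.11 and RPLP0 at -0.10.

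RPS21 and RPS24 were the only members of the 75 on primary chromosomes whose neighbours had a median of at least 0.2 either way. Among the other 73 the neighbour medians lay between -0.11 and 0.16. The remaining 3 members were listed on alternate contigs and were given no neighbours. The lowest member, RPS24, and RPS21, level with RPS27L at the top, were thus the ones in shifted segments. With a pseudocount of 0.1 RPS27L stood highest, at 0.523 against 0.522 for RPS21, and its neighbours had a median of -0.056. The part of the segment in either difference was not tested.

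**Figure D4:**
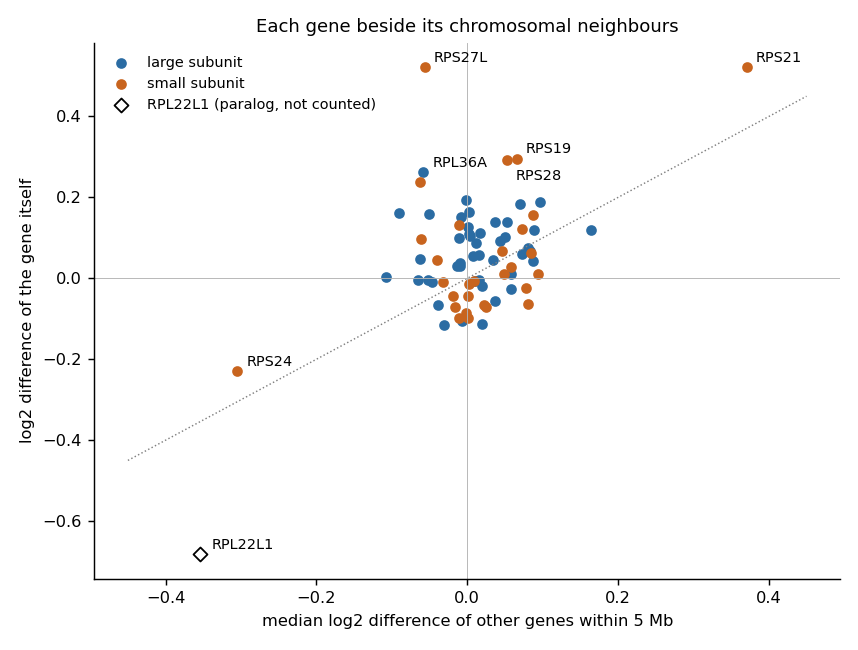
Log2 difference of each of 75 members (vertical axis) against the median log2 difference of other genes within 5 Mb (horizontal axis), TPC1-C1orf106 minus TPC1-Vector, coloured by subunit, with a dotted line where both are equal and RPL22L1 as an open diamond. RPS21 and RPS24 lie away from the cloud along the dotted line, and RPS27L lies above the cloud with a neighbour median near 0.

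Grouped by role, the stalk proteins, which recruit the elongation factors, were at 1901 and 1768 FPKM for RPLP0, 1045 and 1042 FPKM for RPLP1, and 1030 and 1175 FPKM for RPLP2. The log2 differences of these 3 mRNAs were -0.10, -0.0035 and 0.19, with no error known for any of them, and none was called. RPL5 and RPL11, which carry the 5S ribosomal RNA and bind MDM2 when ribosome assembly fails, stood at 852 and 840 FPKM and at 1140 and 1229 FPKM. Of the tunnel proteins, RPL4 had 1408 and 1399 FPKM, RPL17 had 845 and 843 FPKM, and RPL39 had 912 and 986 FPKM, with differences of -0.0095, -0.0042 and 0.11.

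RPS6, the ribosomal substrate of the S6 kinases, had a difference of -0.065. RPSA, which also serves as a laminin receptor at the cell surface, had a difference of -0.072. RPS27A, made as a fusion with ubiquitin, stood at 365 and 390 FPKM, a difference of 0.097. RPS4X, at 1305 and 1242 FPKM, had a difference of -0.072. None of these 4 genes was called.

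The 9 genes listed for Diamond-Blackfan anaemia, an inherited failure of red cell production caused by loss of 1 copy of a ribosomal protein gene, had a median difference of 0.045. It was 0.10 without members of shared intervals and 0.070 without those in shifted segments. RPS19 was called higher, 11.1% of the list beside 10.6% of all kept genes, 0 were lower, and 6 lay above 0. Beside RPS19, RPS24, RPS26, RPL5 and RPL11, given above, they included RPS7 at 905 and 911 FPKM, RPS10 at 775 and 799 FPKM, and RPL35A at 988 and 985 FPKM.

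Members of lower abundance lay more often above 0. Ordered by mean FPKM, the upper 26 members had a median difference of 0.0024 with 13 above 0, the middle 26 one of 0.035 with 17 above 0, and the lower 26 one of 0.096 with 22 above 0. The Spearman rho between mean FPKM and log2 difference was -0.34 over the 78 members and 0.021 over 673 other genes at 100 FPKM or more with a transcript length. The rho between transcript length and difference was -0.23 for the members and -0.15 for those other genes, and that with transcript GC 0.14 and 0.25. All these points come from the same pair of pooled values, so the figures describe these libraries only.

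For 12 members the listed interval coincided with that of other entries, 18 in all, of which the highest had 54.3 FPKM. They were RPL35A, RPL5, RPL17, RPS25, RPS10, RPL18, RPL31, RPL15, RPS27A, RPL10, RPL36A and RPL23A, and none of the 4 called members was among them. Without those 12 the median difference of the members was 0.040.

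Ribosomal proteins outside the name pattern were described beside the members. FAU, which makes RPS30, stood at 307 and 357 FPKM, a difference of 0.22. GNB2L1, the older symbol of the scaffold protein RACK1, stood at 939 and 961 FPKM, a difference of 0.033. Neither was called.

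Among the paralogs, RPL22L1, a near-copy of RPL22 that can take its place in the ribosome, differed most. It stood at 58.5 FPKM in TPC1-Vector against 36.3 FPKM in TPC1-C1orf106, 0.620-fold or -0.68 on the log2 scale, larger than the difference of any member. The 18 genes within 5 Mb of it on chromosome 3 had a median of -0.35, so RPL22L1 lay 0.33 below its neighbours. RPL22 stood at 193 and 192 FPKM. Of the summed FPKM of both genes, RPL22L1 made up 23.2% in TPC1-Vector and 15.9% in TPC1-C1orf106. RPL7L1 (116 and 123 FPKM), RPL26L1 (52.1 and 59.9 FPKM) and RPL36AL (224 and 229 FPKM) were not called. RPL3L, RPL10L, RPL39L, RPS4Y1 and RPS4Y2 had no entry.

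The other genes of the translation machinery were read from lists grouped by function. Of 8 elongation factors 0 were called, with a median of 0.058, from EEF1A1, which delivers tRNA and had 2935 and 2691 FPKM, at -0.13 to EEF1A2 at 0.26. Of 19 other mRNAs with a TOP motif, which overlap that list, 0 were called and the median was 0.015, from EIF4B at -0.13 to EEF1D at 0.19. Of 13 host genes of small nucleolar RNAs in the same class, 2 were called higher and 1 lower, from SNHG5 at -0.27 to EPB41L4A-AS1 at 0.36. Over all kept genes 10.6% were called higher and 9.63% lower, with an interquartile range of 0.24, beside 0.11 for the 19 TOP mRNAs and 0.28 for the 13 host genes.

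The counts of the next lists stand beside 10.6% of all kept genes called higher and 9.63% called lower. Neighbours were not computed for the genes of these lists, as they were for RPS24 and RPL22L1. Whether their differences, the lower calls among them, follow shifted chromosomal segments was not tested. Of 32 initiation factors 1 was called higher and 2 lower, with a median of 0.062. EIF2B5, the catalytic subunit of the exchange factor of eIF2, had 34.5 and 25.1 FPKM (-0.45), and EIF4G3, a scaffold of the cap complex, had 13.1 and 17.0 FPKM (0.36). Of 48 ribosome biogenesis factors 3 were called higher and 4 lower, with a median of 0.093 and 38 above 0. Their extremes were NOLC1, a nucleolar scaffold, with 113 and 90.5 FPKM (-0.32), and RRP9, which binds the U3 small nucleolar RNA, with 27.3 and 33.7 FPKM (0.30). Of 20 RNA polymerase I genes 3 were higher and 1 lower, from POLR2H at -0.47 to CD3EAP at 0.35. Of 13 genes for S6 kinases, mTORC1 and its partners, 0 were higher and 1 was lower, PDCD4, an inhibitor of the helicase eIF4A, with 11.6 and 8.91 FPKM (-0.36), and AKT1S1 was highest at 0.19.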

How the data were processed

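Total RNA was extracted from TPC1 cells for 2 TPC1-Vector and 2 TPC1-C1orf106 libraries. Libraries were made with a NEBNext Ultra kit per the labels or a VAHTS mRNA kit per the study's methods. The authors deposited 1 FPKM value per gene and group, libraries combined. The submitters' processing notes name CASAVA, Cufflinks 2.1.1, Cuffdiff and hg38. The aligner, gene annotation and strand setting are not given in the sources used here. The table also holds the authors' log2 ratio, p-value and q-value columns, which were not used.

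With 1 value per group no limma fit was possible and no test was run. Genes were kept from a mean of 0.5 FPKM upwards, differences were taken on log2(FPKM + 0.5), which understates those of low genes, and called genes differ by at least 1.2-fold. Levels are set side by side per length, and FPKM of short transcripts is less certain. Deposited starts count from 0 and are given here from 1. Neighbours were genes on primary chromosomes, members left out, with a mean of 1 FPKM or more. Their midpoints lay within 5 Mb of that of the gene, and at least 10 of them were required. Pseudogenes, transcript length and GC came from GENCODE release 29, and promoters from RefSeq (GRCh38.p14). Python 3.11.15, pandas 2.3.3 and numpy 2.4.6 were used, and the calculation was tested on simulated data.

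Named were, in each subunit, the 5 highest and 3 lowest members by mean FPKM, called members, genes of the role lists, members in shifted segments, paralogs, and the extremes of each other list. A few genes that these rules take are not reported here. RPL36A, RPS26, RPL3, RPL12 and the genes of shared intervals were named after their values were seen. Members and lists were chosen with earlier results of these data known. Alternatives were other pseudocounts, filters, folds, scalings and sets of members.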

Additional observations from a re-analysis of the deposited data

How the results depend on the processing

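No paired analysis was possible because the table holds 1 combined value per group, and for the same reason no library could be left out. The number of members called follows the fold chosen: at 1.5-fold 0 were higher and 0 lower, where 2.24% of kept genes were higher and 1.45% lower, and at 1.1-fold 16 were higher and 1 lower, where 23.4% and 21.7% of kept genes were. The share of summed FPKM in TPC1-Vector was 3.77% with all entries in the sum, since SNORA57 then takes most of it, and 16.8% in TPC1-C1orf106. At 1.2-fold, 4 members were called higher and 0 lower with a pseudocount of 0.1 or 1, median-of-ratios scaling, no filter, a filter at 1 FPKM, or without the 12 members of shared intervals, and 3 and 0 without RPS21 and RPS24. Quantile normalization called 6 higher and 0 lower, with RPS19 (0.20) and RPS28 (0.25) no longer called and RPS2, RPL35, RPL8 and RPL7 called instead. It ties the highest values of the columns to each other, and SNORA57, present in 1 column only, displaced them, so RPS2 came to 7.61 on the log2 scale, RPL35 to 0.41, RPL8 to 0.29, RPL7 to 0.28 and RPS27 to 0.11. With SNORA57 left out first, an alternative added after the data were seen, 3 were higher and 0 lower (RPS21, RPS27L and RPL35), RPS19 (0.20) and RPS28 (0.21) were again not called, and RPL35 (0.27), RPL7 (0.23) and RPS27 (0.031) still moved by over 0.1. Of 42 named genes, 7 changed sign or came to 0 under the first and 6 under the second. Those that came to 0 were RPL4 under the first and RPS2 under the second. Under the pseudocounts and median-of-ratios scaling 0 genes changed sign. Unknown depth and pooled libraries limit every value.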

Other observations

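Members of some chromosomes lay all or mostly on 1 side of 0, a grouping chosen after the values were seen. Of all members, 66.7% lay above 0. All 11 members listed on chromosome 19 itself lay above 0, with a median log2 difference of 0.12, beside 0.060 and 64.3% above 0 for the 760 other kept genes of that chromosome. All 6 members on chromosome 17, RPL23, RPL26, RPL19, RPL38, RPL27 and RPL23A, lay above 0, with a median of 0.098, beside 0.0092 for 655 other genes. This did not hold under quantile normalization, where RPL26 had -0.018, or -0.033 with SNORA57 left out first. On chromosome 9, 3 of 4 members lay below 0, with a median of -0.061, beside 0.0018 for 522 other genes. On chromosome 19, RPS19 and RPS28 were called higher, 18.2% of its members, beside 13.2% of its other kept genes, and both calls were lost under quantile normalization (0.20 and 0.25). On the other two chromosomes 0 members were called.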
